A study of Pyrus communis with 12 samples.

Results

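The 7 genes described here encode enzymes of the flavonoid pathway that the study names in pear, and they are 7 of the 42760 genes in the deposited table. They were taken by their PCP identifiers: the 4-coumarate:CoA ligases 4CL1 (PCP003610) and 4CL2 (PCP018170), a chalcone synthase (CHS, PCP023048), the chalcone isomerases CHI PCP021141 and CHI PCP039844, a flavanone 3-hydroxylase (F3H, PCP013732) and an anthocyanidin synthase (ANS, PCP027029). All 7 passed the filter on low values, an FPKM (mapped fragments scaled to gene length and library size) of at least 1 in at least 3 libraries, as did 25707 genes in all. ‘Red Clapp Favorite’ (‘RCF’) is a red sport of the pear ‘Clapp Favorite’ (‘CF’), and both were grown on the same rootstock in the same orchard. Skins of young fruits were pooled for each library, with 3 replicates of ‘RCF’ at 5 days after full bloom (DAFB, ‘RCF2’), 3 of ‘RCF’ at 2 DAFB (‘RCF1’), 3 of ‘CF’ at 5 DAFB (‘CF2’) and 3 of ‘CF’ at 2 DAFB (‘CF1’). At 2 DAFB the fruits of both cultivars were green, and at 5 DAFB they differed in color. Each stage was sampled on a single day, so the stage and the day cannot be told apart.

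Flavonoids are built from phenylalanine by way of p-coumarate. The 4CL enzymes activate p-coumarate as a CoA thioester, CHS condenses it with malonyl-CoA to a chalcone, CHI closes the chalcone to a flavanone, and F3H hydroxylates the flavanone to a dihydroflavonol. Dihydroflavonol reductase (DFR) gives leucoanthocyanidins, and ANS oxidizes these to anthocyanidins, the colored cores of anthocyanins. Procyanidins branch off through leucoanthocyanidin reductase (LAR) and anthocyanidin reductase (ANR).

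Primer pairs for qPCR were designed for 3 of the enzymes. They are shown because chalcone synthases and chalcone isomerases have several copies in the table, and each pair carries the identifier of the copy it was meant for. Their match to the genes was not checked here, as no transcript sequence was used. The study reports qPCR of CHS, CHI and ANS on the RNA that was sequenced, and describes profiles much like those from sequencing. Those qPCR values were not used here.
ANS PCP027029 forward: gaggctggagaaagaagt
ANS PCP027029 reverse: gttgtggaggatgaaggt
CHI PCP021141 forward: gctgaaattgtttcacatct
CHI PCP021141 reverse: gctgcactccatattgtg
CHS PCP023048 forward: acatctccgtgaagtagg
CHS PCP023048 reverse: aatccagaagagcgagtt
The forward primer of CHI PCP021141 had 20 bases, with a GC content of 35.0%, and the others had 18 bases, with 44.4% or 50.0%.

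The table names a protein domain for each gene, which allows a check of the names. CHS PCP023048 is listed with a chalcone/stilbene synthase active site, both CHI genes with a chalcone isomerase domain, and F3H and ANS with the oxoglutarate/iron-dependent oxygenase domain that these enzymes share. Both 4CL genes are listed with a domain of unknown function (DUF4009), which neither bears out nor contradicts the name. The 7 genes lie on 7 scaffolds of an assembly whose build is not given in the sources used here. The study's text speaks of apple as the mapping reference, whereas the identifiers and scaffolds of the table carry other names, so the sequence behind these coordinates and behind the values of each gene copy is not settled. 4CL1 is at scaffold00123:356319-360627 (minus strand), 4CL2 at scaffold00292:73116-78167 (minus), CHS at scaffold00375:176126-177777 (plus) and CHI PCP021141 at scaffold00134:248986-251069 (plus). CHI PCP039844 is at scaffold00147:229114-230533 (minus), F3H at scaffold00729:88467-90897 (minus) and ANS at scaffold02897:18886-20356 (plus).

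The summed FPKM of a library was between 575131 and 636409. At low FPKM the values are multiples of what 1 fragment is worth, and comparing that unit between libraries put the depth of the libraries, relative to the deepest, at 0.697 to 0.829 in ‘RCF2’, 0.693 to 0.807 in ‘RCF1’, 0.953 to 1 in ‘CF2’ and 0.633 to 0.835 in ‘CF1’. The correlation of log2(FPKM + 1) between replicates, taken over genes that are not independent of each other, had a Pearson's r of 0.983 to 0.991 in ‘RCF2’, ‘RCF1’ and ‘CF2’, and 0.844 to 0.964 in ‘CF1’. The library that stood apart was ‘CF1’ replicate 3, and several results resting on it are given with and without it. Not every listed marker of epidermis was well expressed in every group. In the skins the START domain gene GLABRA2 (PCP004632) was at 20.5 to 26.9 FPKM in ‘RCF2’, 12.5 to 14.8 in ‘RCF1’, 20.1 to 22.8 in ‘CF2’ and 9.24 to 11.2 in ‘CF1’. WIN1 (PCP011340) was at 9.48 to 11.4 FPKM in ‘RCF2’ and 10.2 to 11.2 in ‘CF2’. At 2 DAFB WIN1 was near the floor, at 0.386 to 1.36 in ‘RCF1’ and 0 to 0.856 in ‘CF1’, with 0 in replicate 3. SHINE2 (PCP017394) was at 0.271 in ‘CF1’ replicate 3, where the other libraries of ‘CF1’ had 8.82 and 15.1. In such bulk samples, fewer cells of a type and less RNA per cell cannot be told apart.

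The 4CL enzymes act ahead of the flavonoid steps proper, and 4CL1 was the more abundant of them. It was at 65.4, 60.8 and 60.5 FPKM in ‘RCF2’, 11.4, 11.8 and 14.6 in ‘RCF1’, 35.3, 48.4 and 32.8 in ‘CF2’ and 14.8, 12.1 and 17.6 in ‘CF1’. Every library of ‘RCF2’ lay above every other library, and those of ‘RCF1’ and ‘CF1’ overlapped. 4CL2 was at 19.4, 17.1 and 16.8 FPKM in ‘RCF2’, 3.62, 3.60 and 4.24 in ‘RCF1’, 9.36, 15.0 and 9.91 in ‘CF2’ and 5.85, 6.38 and 6.60 in ‘CF1’. Its 4 groups did not overlap, with ‘RCF2’ highest and ‘RCF1’ lowest.

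CHS, the entry enzyme of flavonoid synthesis, had the lowest values of all at 2 DAFB in ‘RCF’. It was at 39.6, 35.0 and 35.8 FPKM in ‘RCF2’, 0.750, 2.16 and 1.48 in ‘RCF1’, 16.8, 30.7 and 18.7 in ‘CF2’ and 7.27, 11.2 and 14.3 in ‘CF1’. The highest library of ‘RCF1’ was below the lowest of ‘CF1’, and the lowest of ‘RCF2’ above the highest of ‘CF2’. CHI PCP021141 was at 33.5, 23.5 and 30.9 FPKM in ‘RCF2’, 4.06, 4.31 and 3.90 in ‘RCF1’, 20.3, 26.8 and 19.8 in ‘CF2’ and 6.12, 8.70 and 6.38 in ‘CF1’. Its cultivars overlapped at 5 DAFB but not at 2 DAFB. CHI PCP039844, the more abundant isomerase, was at 133, 106 and 124 FPKM in ‘RCF2’, 22.0, 26.9 and 25.7 in ‘RCF1’, 84.6, 107 and 93.9 in ‘CF2’ and 30.2, 39.1 and 22.9 in ‘CF1’. Here the cultivars overlapped at both stages, at 2 DAFB only through ‘CF1’ replicate 3.

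The oxygenases F3H and ANS were the most abundant at 5 DAFB. F3H was at 208, 172 and 197 FPKM in ‘RCF2’, 36.9, 38.9 and 41.8 in ‘RCF1’, 128, 171 and 129 in ‘CF2’ and 44.5, 53.0 and 39.4 in ‘CF1’. The cultivars overlapped at 2 DAFB only through ‘CF1’ replicate 3. At 5 DAFB ‘CF2’ replicate 2, the highest of its group, came within 1 FPKM of the lowest library of ‘RCF2’. ANS was at 292, 236 and 248 FPKM in ‘RCF2’, 16.0, 22.1 and 17.3 in ‘RCF1’, 131, 202 and 149 in ‘CF2’ and 20.8, 19.4 and 20.2 in ‘CF1’. Both cultivars were far higher at 5 DAFB than at 2 DAFB, where they overlapped.

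**Figure D1:**
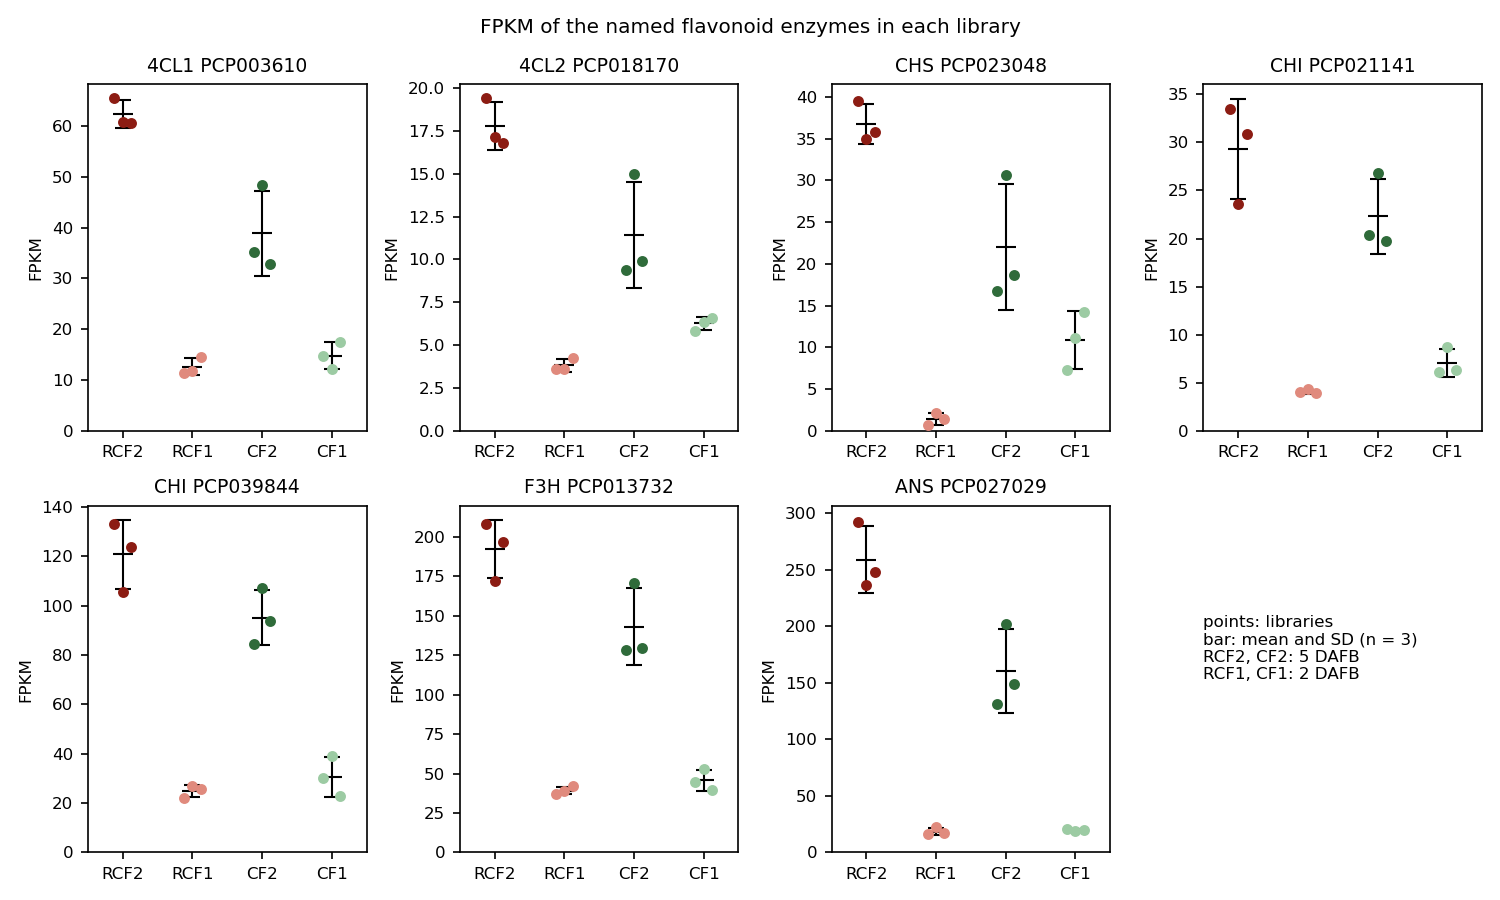
FPKM (vertical axis, linear, from 0) of each of the 7 enzymes in the libraries of ‘RCF2’, ‘RCF1’, ‘CF2’ and ‘CF1’, with points for libraries and bars for the mean and SD (n = 3). All 7 were higher at 5 DAFB than at 2 DAFB in both cultivars without overlap, and CHS was at 0.750 to 2.16 FPKM in ‘RCF1’, against 7.27 to 14.3 in ‘CF1’.

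The comparison of stages asks which enzymes moved as the fruits of each cultivar developed. In ‘RCF2’ vs. ‘RCF1’ all 7 enzymes were called higher and in ‘CF2’ vs. ‘CF1’ 5 were. In both comparisons all 7 were higher at 5 DAFB, with no overlap between the libraries of the stages. A gene was called at a limma P under 0.05 before adjustment, if its log2 fold change on the log2(FPKM + 1) scale was also 1 or more in size. Of all tested genes 3.54% were called higher in ‘RCF2’ vs. ‘RCF1’ (3.53% with a Benjamini-Hochberg adjusted P under 0.05), and 29.8% were higher without overlap. In ‘CF2’ vs. ‘CF1’ the shares were 7.23%, 3.81% and 36.1%. The study picked these enzymes as differentially expressed genes on the same libraries, so the counts are not independent evidence of a direction.

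CHS had the highest fold change of the 7 in ‘RCF’. Its log2 fold change in ‘RCF2’ vs. ‘RCF1’ was 3.98 (standard error 0.19, limma adjusted P = 9.26e-06). Its mean was 36.8 ± 2.44 FPKM in ‘RCF2’ and 1.46 ± 0.706 in ‘RCF1’ (SD, n = 3 each), 25.1 times as high. As CHS was low in ‘RCF1’, the log2(FPKM + 1) scale understates its change. With 0.1 added in place of 1 the log2 fold change was 4.67 (standard error 0.31). ANS followed with 3.75 (standard error 0.13), at means of 258.9 ± 29.6 FPKM in ‘RCF2’ and 18.5 ± 3.17 in ‘RCF1’, 14.0 times as high. The other 5 enzymes rose by 1.96 (4CL2) to 2.56 (CHI PCP021141), with ratios of means between 4.66 and 7.17. The adjusted P of the 7 were between 2.63e-06 and 9.75e-06.

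In ‘CF’ the order was another. ANS had the highest log2 fold change in ‘CF2’ vs. ‘CF1’, 2.91 (standard error 0.18, limma adjusted P = 0.00546), with means of 160.6 ± 37.1 FPKM in ‘CF2’ and 20.1 ± 0.718 in ‘CF1’ (SD, n = 3 each), 7.99 times as high. CHI PCP039844 rose by 1.63, F3H by 1.62, CHI PCP021141 by 1.53 and 4CL1 by 1.33, with ratios of means between 2.62 and 3.15 and limma adjusted P between 0.00853 and 0.0137. CHS and 4CL2 were not called, at 0.95 (standard error 0.31, limma adjusted P = 0.0702) and 0.74 (standard error 0.19, limma adjusted P = 0.0426). CHS lay close to the threshold, and was called at 1.15 without ‘CF1’ replicate 3, where its FPKM was highest in the group. With an adjusted P under 0.05 the 5 calls became 1 when ‘CF2’ replicate 1 or ‘CF2’ replicate 2 was left out, 3 when ‘CF2’ replicate 3 was, 4 when ‘CF1’ replicate 1 was and 6 when ‘CF1’ replicate 3 was.

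Epidermal markers moved with the stage as well, and the listed lignifying markers moved in different directions. The 4 listed epidermal markers summed to 62.2 to 78.7 FPKM in ‘RCF2’, 29.7 to 36.8 in ‘RCF1’, 86.8 to 97.2 in ‘CF2’ and 15.1 to 36.0 in ‘CF1’, where replicate 3 had the lowest sum and the other libraries had 31.0 and 36.0. They were called higher for 2 of 4 in ‘RCF2’ vs. ‘RCF1’ and 4 of 4 in ‘CF2’ vs. ‘CF1’, against 3.54% and 7.23% of all tested genes. The 3 markers of lignifying cells summed to 62.7 to 68.8 FPKM in ‘RCF2’, 29.3 to 35.0 in ‘RCF1’, 56.2 to 67.7 in ‘CF2’ and 2.67 to 35.0 in ‘CF1’, again with replicate 3 lowest and the others at 22.8 and 35.0. Most of each group's sum came from POX72 (PCP014536), at means of 59.6 FPKM in ‘RCF2’, 29.7 in ‘RCF1’, 57.9 in ‘CF2’ and 17.7 in ‘CF1’. POX72 was called in neither stage comparison with all libraries. In each of them 1 marker was called higher, POX64 (PCP016648), and 1 lower, CAD6 (PCP025778). At 2 DAFB POX64 was near the floor, at 0 to 0.205 FPKM in ‘RCF1’ and 0.0507 to 0.393 in ‘CF1’. When ‘CF1’ replicate 3 was left out, 2 were higher in ‘CF’, POX64 and POX72, and 1 lower. No gene of either list was called between cultivars in the limma fits. At 2 DAFB GLABRA2 was at 0.39 in ‘RCF1’ vs. ‘CF1’ (limma adjusted P = 0.277). At 5 DAFB 3 of the 4 epidermal markers had fold changes below 0 in ‘RCF2’ vs. ‘CF2’, where the 7 enzymes were above 0. SHINE2 PCP017394 averaged 21.9 ± 1.81 FPKM in ‘RCF2’ and 38.3 ± 1.35 FPKM in ‘CF2’ (SD, n = 3 each), a log2 fold change of -0.78 (limma adjusted P = 0.00436), and SHINE2 PCP010108 was at -0.53 (limma adjusted P = 0.0989). The part of these cell types in the enzymes' changes was not tested.

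The comparison of cultivars at 2 DAFB, when both were green, asks whether the enzymes differed before the color did. CHS was lower in ‘RCF1’ than in ‘CF1’, at a mean of 1.46 ± 0.706 against 10.9 ± 3.51 FPKM (SD, n = 3 each), so that the mean of ‘CF1’ was 7.45 times that of ‘RCF1’. Its log2 fold change was -2.27 (standard error 0.31, unadjusted P = 0.000328 in the limma fit) and the limma adjusted P was 0.117. With 0.1 added to the FPKM in place of 1, the log2 fold change was -2.87. CHS was the single call among the 7, where 1.87% of all tested genes were called lower and 0.00389% with an adjusted P under 0.05. The study listed CHS PCP023048 among genes differing both between stages and between cultivars. It chose the 7 by correlation with pigments over these same comparisons, so the cultivar and interaction counts are not independent evidence. Without ‘CF1’ replicate 3 its fold change was -2.07 (limma adjusted P = 0.0565), and leaving out any other library gave -2.51 to -2.04 with 0 adjusted calls. Over the alternatives the limma adjusted P of CHS ranged from 0.000488 with array weights, which give less weight to libraries that fit poorly, to 0.560 without ‘RCF1’ replicate 3.

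The other 6 enzymes had fold changes below 0 in ‘RCF1’ vs. ‘CF1’ and were not called. 4CL2 was at -0.60 (standard error 0.12) and CHI PCP021141 at -0.65 (standard error 0.16), with unadjusted P of 0.00244 and 0.00571 and limma adjusted P of 0.177 and 0.220. Both had every library of ‘RCF1’ below every library of ‘CF1’, as did CHS, 3 of the 7, while 8.79% of all tested genes were lower without overlap. CHI PCP039844 was at -0.27, 4CL1 and F3H at -0.21 and ANS at -0.13, with unadjusted P from 0.203 to 0.406 in the limma fit. Without ‘CF1’ replicate 3, CHI PCP039844 was at -0.46 and F3H at -0.30, with limma unadjusted P of 0.0239 and 0.0435. Their limma adjusted P were 0.212 and 0.260, and neither was called. 4CL1 was then at -0.09 and ANS at -0.13. The median of the 7 was -0.27, beside 0.12 for all tested genes.

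At 5 DAFB, when the color differed, all 7 enzymes had fold changes above 0 in ‘RCF2’ vs. ‘CF2’ and none was called. The values ran from 0.34 (CHI PCP039844, standard error 0.11) to 0.76 (CHS, standard error 0.20), with a median of 0.62 beside -0.01 for all tested genes. The limma fit gave an unadjusted P under 0.05 for each of the 7, against 11.7% of all tested genes with such a P and a higher value in ‘RCF2’. The adjusted P was under 0.05 for 2 of the 7, 4CL1 (0.69, adjusted P = 0.0286) and ANS (0.70, adjusted P = 0.0423), below the fold threshold, against 4.31% of all tested genes. Over the alternatives the limma adjusted P ranged from 0.00974 to 0.0934 for 4CL1 and from 0.0244 to 0.125 for ANS. When 1 library was left out, 0 of the 7 had an adjusted P under 0.05, except that 5 had without ‘CF2’ replicate 2. With no filter on low FPKM or in 1 fit of all 12 libraries 0 had such a P. The count was 4 with a filter at an FPKM of 10 and 5 with array weights. In all, 0.902% of tested genes were called higher and 0.731% with an adjusted P under 0.05. The libraries of ‘RCF2’ lay above those of ‘CF2’ without overlap for 4CL1, 4CL2, CHS, F3H and ANS, 5 of the 7, against 14.0% of all tested genes. As the enzymes were picked on these same libraries, these counts are not independent evidence of a direction. The ratios of means were 1.27 to 1.67.

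The result at 5 DAFB rested partly on ‘CF2’ replicate 2. It was the highest library of ‘CF2’ for all 7 enzymes and for 10 of 16 other pathway genes, against 33.1% of all tested genes, and lay 0.26 to 0.79 on the log2 scale above the mean of the other libraries of its group. Without it CHS was called at 1.01 (limma adjusted P = 0.00974, in a range of 0.00974 to 0.306 over the alternatives). Similarly, ‘RCF2’ replicate 1 was the highest of its group for all 7 enzymes and 11 of the 16 genes, against 38.3% of all tested genes, by 0.11 to 0.30. In ‘RCF1’ and ‘CF1’ no library was highest for more than 4 of the 7.

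**Figure D2:**
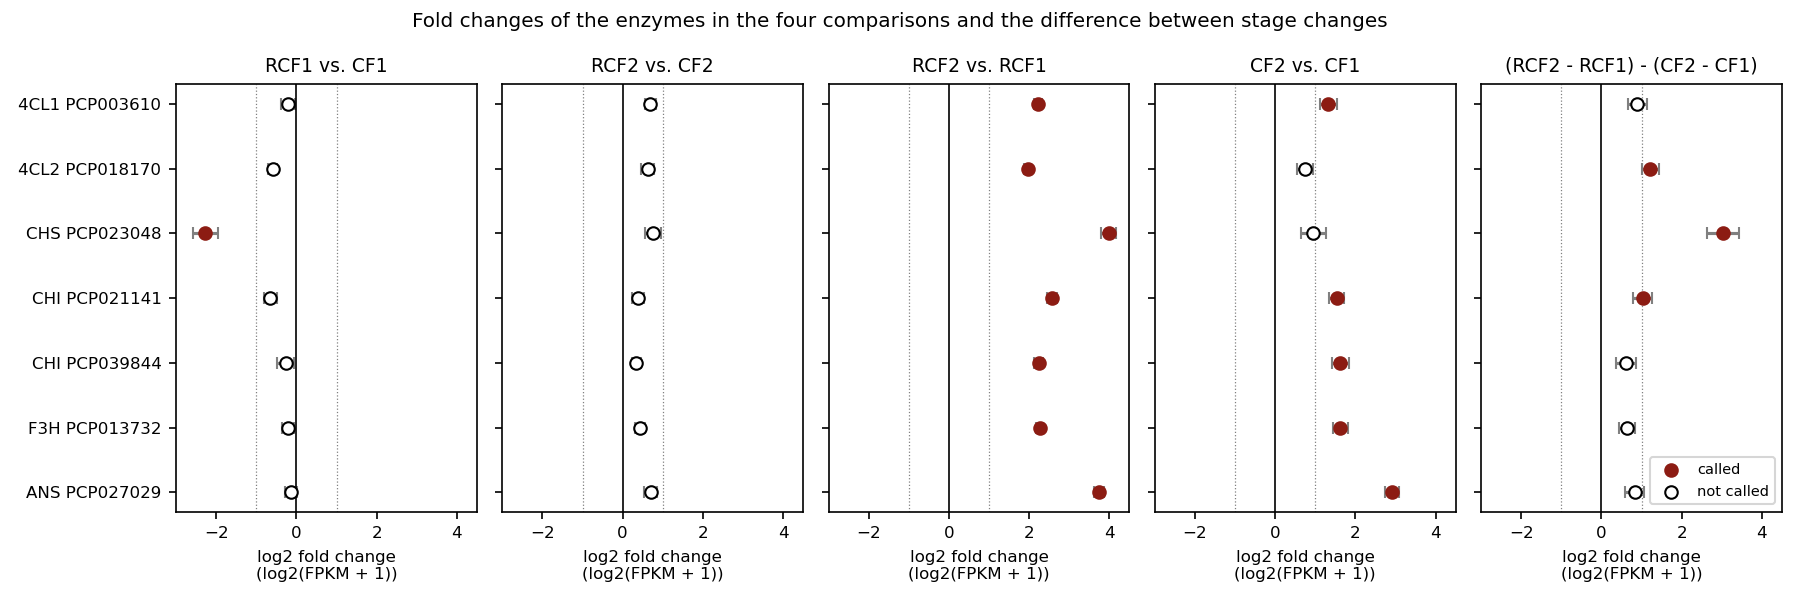
Log2 fold change on the log2(FPKM + 1) scale (horizontal axis) of the 7 enzymes in the 4 comparisons and the difference between the stage changes of the cultivars, with bars for the standard error. Filled points were called, and dotted lines mark a log2 fold change of 1 and -1. CHS was the single enzyme called in ‘RCF1’ vs. ‘CF1’, at -2.27, and none was called in ‘RCF2’ vs. ‘CF2’.

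Whether the change with the stage differed between the cultivars was tested as an interaction on all 12 libraries, (‘RCF2’ - ‘RCF1’) - (‘CF2’ - ‘CF1’). It was above 0 for all 7 enzymes, and 3 were called: CHS at 3.03 (standard error 0.40), 4CL2 at 1.22 (standard error 0.22) and CHI PCP021141 at 1.03 (standard error 0.24). The limma adjusted P were 0.0594, 0.0874 and 0.126, so 0 of the 7 held after adjustment. Of all tested genes 2.59% were called higher and 0.00% after adjustment. The other 4 lay between 0.61 (CHI PCP039844) and 0.90 (4CL1), with unadjusted P from 0.00321 to 0.0368 in the limma fit, and ANS was at 0.83. The median of the 7 was 0.90, beside -0.12 for all tested genes.

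The values of CHS and 4CL2 in the interaction were called under every alternative, between 2.60 and 3.66 for CHS and between 1.10 and 1.41 for 4CL2. Without ‘CF1’ replicate 3 they were 2.83 and 1.19, with limma adjusted P of 0.0121 and 0.0416. These adjusted P ranged from 0.000153 to 0.198 for CHS and from 0.000538 to 0.226 for 4CL2 over the alternatives, and were highest without ‘CF2’ replicate 1. CHI PCP021141 lay at the threshold and was not called with array weights (0.93) or without ‘RCF2’ replicate 1 or 3, ‘CF2’ replicate 1 or 3, or ‘CF1’ replicate 2 (0.89 to 0.99).

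The order of the enzymes by FPKM, which is scaled to gene length, changed with the stage in both cultivars. At 5 DAFB ANS had rank 1 in 6 of 6 libraries, ahead of F3H, CHI PCP039844 and 4CL1. At 2 DAFB F3H had rank 1 and ANS rank 3 in 6 of 6 libraries, behind CHI PCP039844. The enzyme with the same rank in all 12 libraries was 4CL1, at 4. ANS took 36.0 ± 1.11% of the summed FPKM of the 7 in ‘RCF2’, 17.6 ± 2.20% in ‘RCF1’, 32.4 ± 1.49% in ‘CF2’ and 14.9 ± 1.75% in ‘CF1’ (SD, n = 3 each). The sum itself was 718 ± 70.8 FPKM in ‘RCF2’, 105 ± 8.44 in ‘RCF1’, 493 ± 94.3 in ‘CF2’ and 136 ± 12.4 in ‘CF1’.

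**Figure D3:**
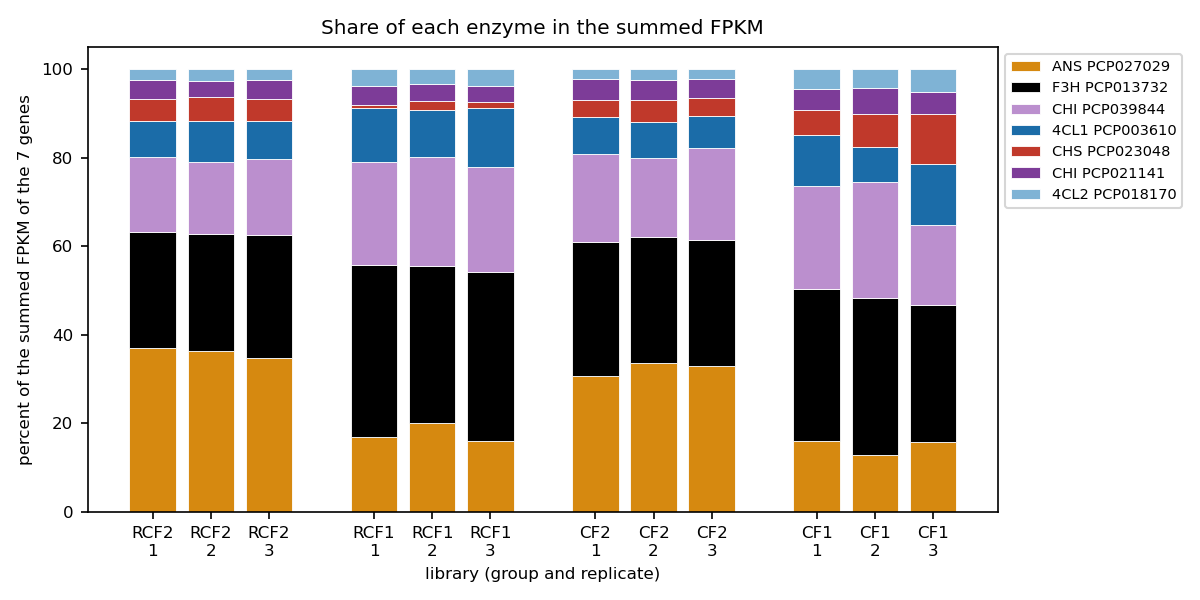
Share of each enzyme in the summed FPKM of the 7 (vertical axis, percent) in each library of ‘RCF2’, ‘RCF1’, ‘CF2’ and ‘CF1’. ANS has 30.8 to 36.9% at 5 DAFB in both cultivars and 12.9 to 20.1% at 2 DAFB, and the share of CHS is 0.791 to 1.97% in ‘RCF1’, against 5.62 to 11.2% in ‘CF1’.

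Of the 24 neighbouring pairs over the 4 groups, 7 had libraries that overlapped in FPKM. At the bottom, CHS had rank 5 in every library of ‘RCF2’, rank 7 in every library of ‘RCF1’, rank 5 or 6 in ‘CF2’ and rank 5 in every library of ‘CF1’. The overlapping pairs were CHI PCP039844 with ANS and CHI PCP021141 with 4CL2 in ‘RCF1’, ANS with F3H and CHI PCP021141 with CHS in ‘CF2’, and in ‘CF1’ 4CL1 with CHS, CHS with CHI PCP021141 and CHI PCP021141 with 4CL2. Within libraries, 4 of these 7 pairs kept 1 order of FPKM in all 3 libraries, CHI PCP039844 over ANS in ‘RCF1’, ANS over F3H in ‘CF2’, and 4CL1 over CHS and CHS over CHI PCP021141 in ‘CF1’. The other 3 pairs had 1 order in 2 of 3 libraries.

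The enzymes were also set against F3H in the same library, as a description with no test. The log2 ratio of CHI PCP039844 to F3H was -0.67 ± 0.03 in ‘RCF2’, -0.66 ± 0.11 in ‘RCF1’, -0.58 ± 0.11 in ‘CF2’ and -0.59 ± 0.17 in ‘CF1’ (SD, n = 3 each). That of 4CL1 was -1.62 ± 0.11 in ‘RCF2’, -1.64 ± 0.11 in ‘RCF1’, -1.89 ± 0.08 in ‘CF2’ and -1.63 ± 0.48 in ‘CF1’. That of 4CL2 was -3.43 ± 0.11 in ‘RCF2’, -3.36 ± 0.07 in ‘RCF1’, -3.67 ± 0.14 in ‘CF2’ and -2.85 ± 0.25 in ‘CF1’, highest in ‘CF1’. CHI PCP021141 was at -2.72 ± 0.12 in ‘RCF2’, -3.26 ± 0.14 in ‘RCF1’, -2.68 ± 0.03 in ‘CF2’ and -2.70 ± 0.14 in ‘CF1’, lowest in ‘RCF1’. ANS was above F3H at 5 DAFB, at 0.43 ± 0.08 in ‘RCF2’ and 0.16 ± 0.11 in ‘CF2’, and below it at 2 DAFB, at -1.10 ± 0.24 in ‘RCF1’ and -1.17 ± 0.25 in ‘CF1’. CHS was at -2.38 ± 0.08 in ‘RCF2’, -4.87 ± 0.73 in ‘RCF1’, -2.74 ± 0.23 in ‘CF2’ and -2.11 ± 0.59 in ‘CF1’. In ‘CF1’ replicate 3 the ratio of CHS was -1.46, while the other libraries of ‘CF1’ were at -2.61 and -2.25.

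**Figure D4:**
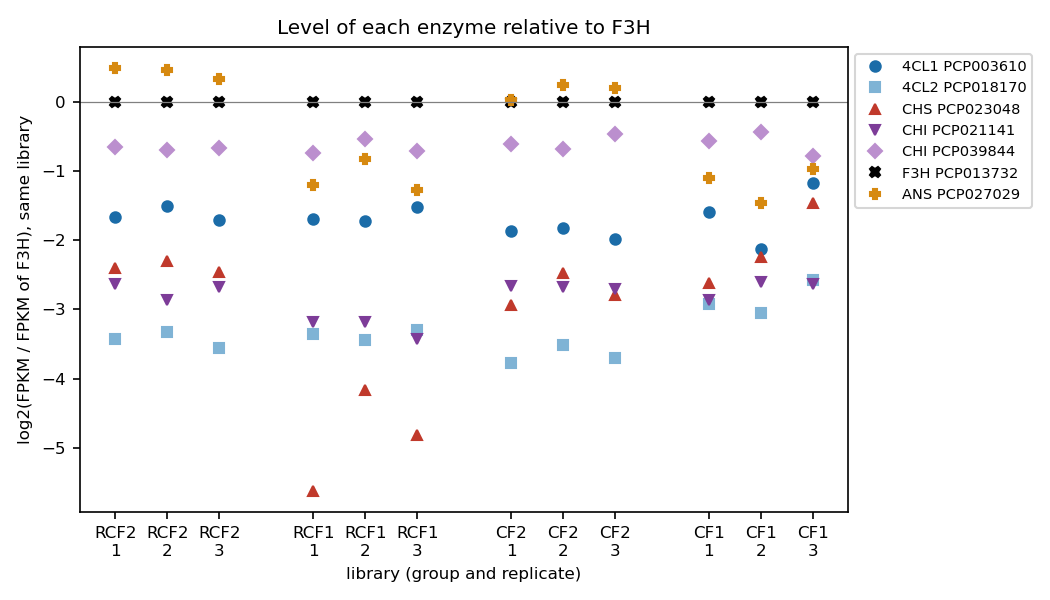
Log2 ratio of the FPKM of each enzyme to the FPKM of F3H in the same library (vertical axis), by library and group (horizontal axis). CHS is at -4.17 to -5.62 in ‘RCF1’, below all its other values, ANS is above 0 at 5 DAFB and below 0 at 2 DAFB, and CHI PCP039844 stays between -0.78 and -0.44.

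Other rows with the same domains show how far the named copies stand for their families. The table lists 5 genes with a chalcone/stilbene synthase domain, of which 3 passed the filter. PCP023049, on the same scaffold as CHS PCP023048 and 21738 bases away, had the highest FPKM of the 3, at 158, 141 and 140 in ‘RCF2’, 37.8, 48.0 and 41.4 in ‘RCF1’, 133, 163 and 129 in ‘CF2’ and 53.3, 65.0 and 35.1 in ‘CF1’. At 2 DAFB its cultivars overlapped only through ‘CF1’ replicate 3. Its log2 fold change was -0.23 in ‘RCF1’ vs. ‘CF1’ and 0.05 in ‘RCF2’ vs. ‘CF2’, neither called, and it rose by 1.77 in ‘RCF’ and 1.49 in ‘CF’ between stages. PCP012650 was at -0.58 in ‘RCF1’ vs. ‘CF1’, not called, and rose by 2.87 and 2.02 between stages. In the interaction PCP012650 was not called with all libraries and was called without ‘CF1’ replicate 3. Near-identical copies can share reads, and how the authors' counting split them is not given in the sources used here, so values of single copies are uncertain.

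CHS PCP023048 therefore held a different share of the family in different groups. It took 15.3 ± 0.357% of the summed FPKM of the 5 genes in ‘RCF2’, 2.79 ± 1.03% in ‘RCF1’, 10.2 ± 1.62% in ‘CF2’ and 15.7 ± 7.89% in ‘CF1’ (SD, n = 3 each). The spread in ‘CF1’ came from replicate 3, at 24.7%, where the other libraries were at 10.1% and 12.4%. Of the 9 genes with a chalcone isomerase domain, 8 passed the filter, and CHI PCP021141 and CHI PCP039844 were the 2 called higher between stages in both cultivars. Of the others, PCP034373 was at 8.47 ± 2.05 FPKM in ‘CF2’ and 23.4 ± 5.61 in ‘CF1’ and PCP016187 at 2.21 ± 0.217 in ‘CF2’ and 6.53 ± 1.49 in ‘CF1’ (SD, n = 3 each), with log2 fold changes of -1.36 and -1.22, both called, while in ‘RCF2’ vs. ‘RCF1’ they were at -0.60 and -0.79, not called.

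**Figure D5:**
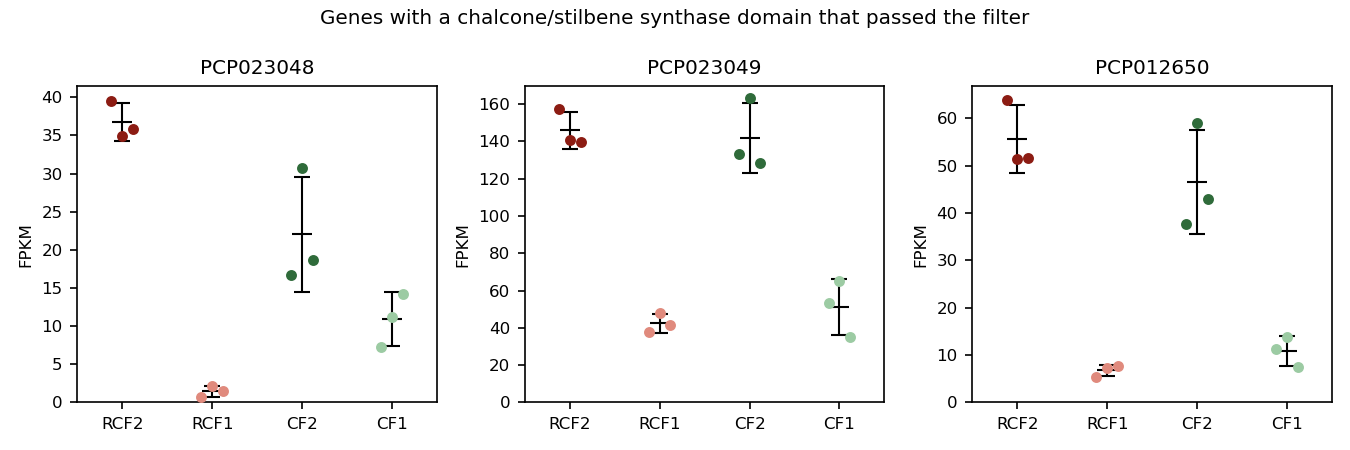
FPKM (vertical axis, linear, from 0) of the 3 genes with a chalcone/stilbene synthase domain that passed the filter, by library, with bars for the mean and SD (n = 3). PCP023048 is at 0.750 to 2.16 FPKM in ‘RCF1’, against 7.27 to 14.3 in ‘CF1’, while PCP023049 lies at 37.8 to 48.0 in ‘RCF1’, against 35.1 to 65.0 in ‘CF1’. The value of 35.1 is from ‘CF1’ replicate 3, and the other libraries of ‘CF1’ lie above all of ‘RCF1’.

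A list of 16 other genes of the pathway, its branches and its regulators gave the surroundings of the enzymes. Between the stages of ‘RCF’ 11 of them were called higher and 1 lower, and between those of ‘CF’ 10 were higher and 1 lower, with or without ‘CF1’ replicate 3. Of all 25707 tested genes, 3.54% and 7.23% were called higher, and 1726 and 2548 genes lower. The list draws on genes that the study called in these libraries, so its counts are not independent evidence. DFR (PCP004147), the step between F3H and ANS, rose by 2.48 in ‘RCF’ and 1.66 in ‘CF’, and ANR (PCP015312) by 2.16 and 1.47. PAL1 (PCP018639), which makes cinnamate from phenylalanine ahead of 4CL, rose by 1.70 and 1.23. The acyltransferase HCT (PCP020078), of the branch to lignin, was the gene called lower in ‘RCF’, at -1.49, and the C4H copy PCP020086, of the step between PAL and 4CL, the gene called lower in ‘CF’, at -1.77. The more abundant C4H copy, PCP002254, went the other way. It was called higher in ‘CF’ at 1.97 (limma adjusted P = 0.0977) and was at 0.81 in ‘RCF’, not called. Its means were 157 FPKM in ‘CF2’ and 53.7 in ‘CF1’, where replicate 3 was at 10.3, against 8.44 and 32.2 for PCP020086.

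Between cultivars at 2 DAFB, 2 of these 16 genes were called higher in ‘RCF1’ and 1 lower, against 1.02% and 1.87% of all tested genes, and at 5 DAFB 2 were called higher in ‘RCF2’, against 0.902%. Those higher in ‘RCF1’ were the glutathione S-transferase GSTF12 (PCP025171, 5.04) and the regulator MYB114 (PCP008283, 1.83), while LAR (PCP024895) was lower at -1.19 (limma adjusted P = 0.160). In ‘RCF2’ vs. ‘CF2’ the same 2 genes were higher, at 4.49 and 2.43. GSTF12 was at 174 to 234 FPKM in ‘RCF2’, 84.6 to 106 in ‘RCF1’, 6.75 to 8.48 in ‘CF2’ and 1.24 to 3.15 in ‘CF1’. MYB114 was at 3.63 to 6.31 FPKM in ‘RCF2’, 2.19 to 2.99 in ‘RCF1’, 0.0534 to 0.197 in ‘CF2’ and 0 to 0.0614 in ‘CF1’. As it was near the floor in ‘CF’, its fold changes on the log2(FPKM + 1) scale understate the differences, and their sizes cannot be compared between stages. In the interaction LAR was called at 1.49 and MYB12 (PCP019868) at -1.10, with limma adjusted P of 0.0874 and 0.216. The chalcone isomerase of this list, PCP027877, is listed with a malectin-like domain and not with a chalcone isomerase domain. The study counts it among its core genes, as it does both isomerases of the 7. PCP027877 was at 0.68 in ‘RCF1’ vs. ‘CF1’ and -0.18 in the interaction, not called in either. The 7 enzymes were all below 0 in the first and all above 0 in the second. Of the 16 genes, 8 were above 0 in the first and 9 in the second. Flavonoid 3'-hydroxylase (PCP020121), which adds a hydroxyl group to the B ring, was at 2.07, 1.48 and 1.75 FPKM in ‘RCF1’ and at 15.1, 20.0 and 0.305 in ‘CF1’. It was called lower in ‘RCF1’, and higher in the interaction, if the last of these, ‘CF1’ replicate 3, was left out, an alternative chosen after seeing the data, and MYB12 was then not called.

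Genes with the most similar pattern were found from the root mean square difference of log2(FPKM + 1), centred per gene, over the 12 libraries. F3H and CHI PCP039844 were each other's closest among the 7, at 0.10, beside a median of 0.98 between either and all tested genes. The closest genes outside the 7 to F3H and to both CHI genes were ANR PCP015312 and PCP020363, an oxoglutarate/iron-dependent oxygenase like F3H, at 0.13 to 0.18. For 4CL1 they were DFR (0.19) and PCP009659 (0.22), listed with a NAD(P)-binding domain, and for 4CL2 the protein phosphatase PCP015838 (0.17) and PCP006106 (0.21). ANS was closest to PCP000001 (0.29), listed with the same domain as the 4CL genes, and to PCP004386 (0.40). CHS had the least similar neighbours, the glycoside hydrolase PCP024881 at 0.64 and PCP024401 at 0.70, beside a median of 1.55.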

How the data were processed

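RNA was sequenced from skins of young fruits in 12 libraries. The authors deposited FPKM values per gene, scaled to gene length and library size. Per the labels, their processing used Trimmomatic 0.38, HISAT2 2.1.0, StringTie 1.3.4d and DESeq2, and the genome build is not given in the sources used here. Counts were not used here, so DESeq2 was not run. Values entered limma 3.58.1 (R 4.3.3) as log2(FPKM + 1), which understates changes at low FPKM, tested two-sided by lmFit and eBayes (trended prior). Each comparison was fitted on its own 6 libraries and the interaction on all 12. P values were adjusted over the 25707 tested genes. The calls use the thresholds of the study. The fits were tested on simulated data, and tables and plots were made with Python 3.11.15, pandas 2.3.3 and matplotlib 3.10.9. The members and lists were chosen with earlier results of these data known, and not all genes of the lists are printed. Named were the 7 enzymes, the lists, and for each enzyme the 2 genes of most similar pattern, all of which are printed. Listed genes outside the 7 come from names in the study.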

Additional observations from a re-analysis of the deposited data

Results flagged for a closer look

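The change from 2 to 5 DAFB differed between the cultivars, by the interaction test at an unadjusted P under 0.05 with an absolute value of at least 1, for 3 enzymes. The difference in log2 fold change was 3.03 for CHS PCP023048, 1.22 for 4CL2 PCP018170 and 1.03 for CHI PCP021141, each larger in ‘RCF’. In the interaction 2.59% of all tested genes were called higher. For each of the 3 enzymes every library at 5 DAFB lay above every library at 2 DAFB of the same cultivar. Such a rise without overlap was seen for 29.8% of all tested genes in ‘RCF’ and 36.1% in ‘CF’. None of the 3 differences held after adjustment over all tested genes, with limma adjusted P of 0.0594, 0.0874 and 0.126. CHS was lower in ‘RCF1’ than in ‘CF1’, which enters this difference.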

How the results depend on the processing

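No fold change of the enzymes changed its sign under any alternative that was run. Under the alternatives 509 values stayed on their side of the threshold, 10 passed it and 6 fell under it. In ‘RCF1’ vs. ‘CF1’ the 1 call became 0 with the adjusted P as threshold. In ‘RCF2’ vs. ‘CF2’ the 0 calls became 1 without ‘CF2’ replicate 2, in a range of 0 to 1 over single libraries left out. In the interaction the 3 calls became 0 with the adjusted P as threshold and 5 without ‘CF2’ replicate 2, where 4CL1 (1.06) and ANS (1.01) were added, in a range of 2 to 5. CHS in ‘CF2’ vs. ‘CF1’ was called with a pseudocount of 0.1 (1.01), after rescaling to TPM (1.07), with array weights (1.39) and without ‘CF2’ replicate 1 (1.11) or replicate 3 (1.04). The cause was not tested. Replicate numbers were not used to pair the libraries in the main fits. The correlation of deviations was -0.179 to 0.335 between libraries of the same number and -0.275 to 0.294 between those of different numbers. In ‘RCF2’ vs. ‘CF2’ the values for the same number were 0.145, 0.203 and 0.0475. With a block for the replicate number the calls were 1 and 0 between cultivars at 2 and 5 DAFB, 7 and 5 between the stages of ‘RCF’ and ‘CF’, and 3 in the interaction, as without it. The calls with an adjusted P under 0.05 between the stages of ‘CF’ became 4 instead of 5. At 5 DAFB the enzymes with such a P at any fold became 1 instead of 2. Between the stages of ‘CF’ the median of all tested genes was 0.26 on the log2 scale after rescaling to TPM and 0.16 without. With 3 libraries per group and no fragment counts, differences of low FPKM have limited precision.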
